A study of Mus musculus with 6 samples.

Results

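The 9 genes described here are transcription factors and 1 growth factor of pluripotent cells. *Pou5f1*, *Sox2*, *Sall4* and *Utf1* are general pluripotency genes, and *Otx2*, *Fgf5*, *Pou3f1*, *Zic2* and *Foxd3* are genes of the formative or primed state. They were taken by gene symbol from the bulk RNA-seq gene count tables, and all 9 of the 16279 genes listed in either table were present in both. Between mESCs and CPCCs, the 4 general genes fell, to between 9.02% (*Sall4*) and 34.2% (*Utf1*) of their mean mESC level. The formative or primed genes did not move together: *Foxd3* and *Zic2* fell, *Fgf5* rose 9.70-fold, and *Otx2* and *Pou3f1* did not pass the test. The *Zic2* call was lost in 5 of the 6 fits that left out 1 library, and the *Utf1* call in 3. *Fgf5* had only 7, 4 and 7 counts in the mESC libraries.

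The mESCs were male F1 cells of a C57BL/6 x CAST/EiJ cross, kept without feeder cells in serum with LIF, the MEK inhibitor PD0325901 and the GSK3 inhibitor CHIR99021 (2i). They came from 3 lines, each a clone grown from a single cell. The CPCCs, heterogeneous cultures of cardiac precursor cells, were made in vitro from those clones through hanging drops and embryoid bodies with ascorbic acid, passaged in medium with EGF and Fgf2, and harvested at the fourth passage. Each cell type gave 3 polyA-selected libraries, here called S01, S02 and S03 (mESCs) and S04, S05 and S06 (CPCCs), as their columns are named. The columns do not tie a CPCC library to its parent clone, and p-values measure the spread between these libraries.

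In pluripotent cells, OCT4 (the product of *Pou5f1*) and SOX2 bind DNA side by side at composite sites and switch on genes such as *Nanog* and *Fgf4*. Cells in 2i and LIF resemble the naive epiblast, which expresses *Klf4*, *Esrrb* and *Tfcp2l1*. As the epiblast leaves that state it passes through a formative and then a primed state, in which *Otx2*, *Fgf5* and *Pou3f1* are switched on while *Pou5f1* stays on. Several of these factors have later roles outside the epiblast: SOX2, OTX2, ZIC2 and POU3F1 in the neural plate and brain, and FOXD3 in the neural crest.

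Library totals were 6442639 to 6907330 counts in mESCs and 8468819 to 11436062 in CPCCs, S04 being the deepest, and 3 counts in 1 library equalled 0.298 to 0.463 CPM (TMM-normalized counts per 1e+06 counts). All 12 naive genes were at 1 CPM or more in mESCs, with summed levels of 3477 to 3700 CPM against 126 to 157 CPM in CPCCs. Of 12 cardiac precursor genes, 9 were at 1 CPM or more in CPCCs. *Mesp1* was listed in neither table, *Tbx5* was listed for mESCs only, and the list summed to 69.2 to 125 CPM in CPCCs against 11.6 to 16.6 CPM in mESCs. Fibroblast genes summed to between 6079 and 9349 CPM in CPCCs.

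For 6 of the 9 genes the RefSeq table held a promoter (*Sall4*, *Pou3f1* and *Zic2* had no entry). The 150 bases before the start are shown, on each gene's own strand and in GRCm38.p6, for 3 genes that fell and for *Fgf5*, which rose. Capitals mark matches on either strand to the GC box GGGCGG, to TCAAGG (the letters of an extended nuclear receptor half-site) and to ATGCAAA (the first 7 letters of the POU octamer).
*Pou5f1*, chr17:35505882-35506031, + strand: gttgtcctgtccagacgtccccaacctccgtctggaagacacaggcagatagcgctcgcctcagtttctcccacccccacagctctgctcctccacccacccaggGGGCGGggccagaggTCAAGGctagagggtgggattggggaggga
*Sox2*, chr3:34649845-34649994, + strand: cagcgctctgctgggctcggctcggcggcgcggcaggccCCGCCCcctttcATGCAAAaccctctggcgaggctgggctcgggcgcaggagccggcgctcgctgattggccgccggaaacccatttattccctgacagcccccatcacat
*Utf1*, chr7:139943706-139943855, + strand: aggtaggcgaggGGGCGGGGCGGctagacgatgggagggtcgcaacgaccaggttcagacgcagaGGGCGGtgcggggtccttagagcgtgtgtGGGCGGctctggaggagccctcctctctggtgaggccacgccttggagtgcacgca
*Fgf5*, chr5:98254034-98254183, + strand: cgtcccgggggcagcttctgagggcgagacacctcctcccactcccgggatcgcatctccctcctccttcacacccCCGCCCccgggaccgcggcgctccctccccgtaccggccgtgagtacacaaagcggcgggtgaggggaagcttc

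In windows of 300 bases, from 250 before the start to 50 after it, the GC box was present in 4 of the 6 promoters and in 35.7% of all 32851 promoters. *Utf1* held 4 matches, the first 2 of which overlap. TCAAGG was present in *Pou5f1*, 30 and 195 bases before the start, and in *Sox2* after its start, against 14.4% of all promoters. ATGCAAA was found in *Sox2*, 99 bases before the start, and in 4.63% of all promoters. The full octamer ATGCAAAT, the SOX core CATTGT and the LEF/TCF core CTTTGA were in none of the 6 windows, and in 1.74%, 12.6% and 16.0% of all promoters. TATAAA was present in *Fgf5* and *Otx2* and in 13.6% of all promoters. The shown stretches of *Sox2*, *Utf1* and *Fgf5* held 69.3%, 68.7% and 71.3% G and C, that of *Pou5f1* 64.7%, and the *Foxd3* and *Otx2* stretches 70% and 46%, against a median of 54% over all promoters.

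The question put to the 9 genes was how far each changed between mESCs and CPCCs. Over the 12471 genes tested with edgeR's quasi-likelihood test at a Benjamini-Hochberg adjusted p under 0.05, 29.7% were lower in CPCCs and 31.7% higher. Of the 9 genes, 6 were lower, 1 was higher and 2 did not pass. In 8 of the 9 the CPCC libraries did not overlap the mESC libraries, 6 lying below and 2 above, where 34.5% of all genes lay below without overlap and 35.3% above. The median log2 fold change was -1.91 over the 9 genes, -2.72 over the 4 general genes and -0.38 over the 5 formative or primed genes, against 0.03 over all genes tested. In bulk RNA, fewer cells that express a gene and less RNA per cell cannot be told apart.

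**Figure D1:**
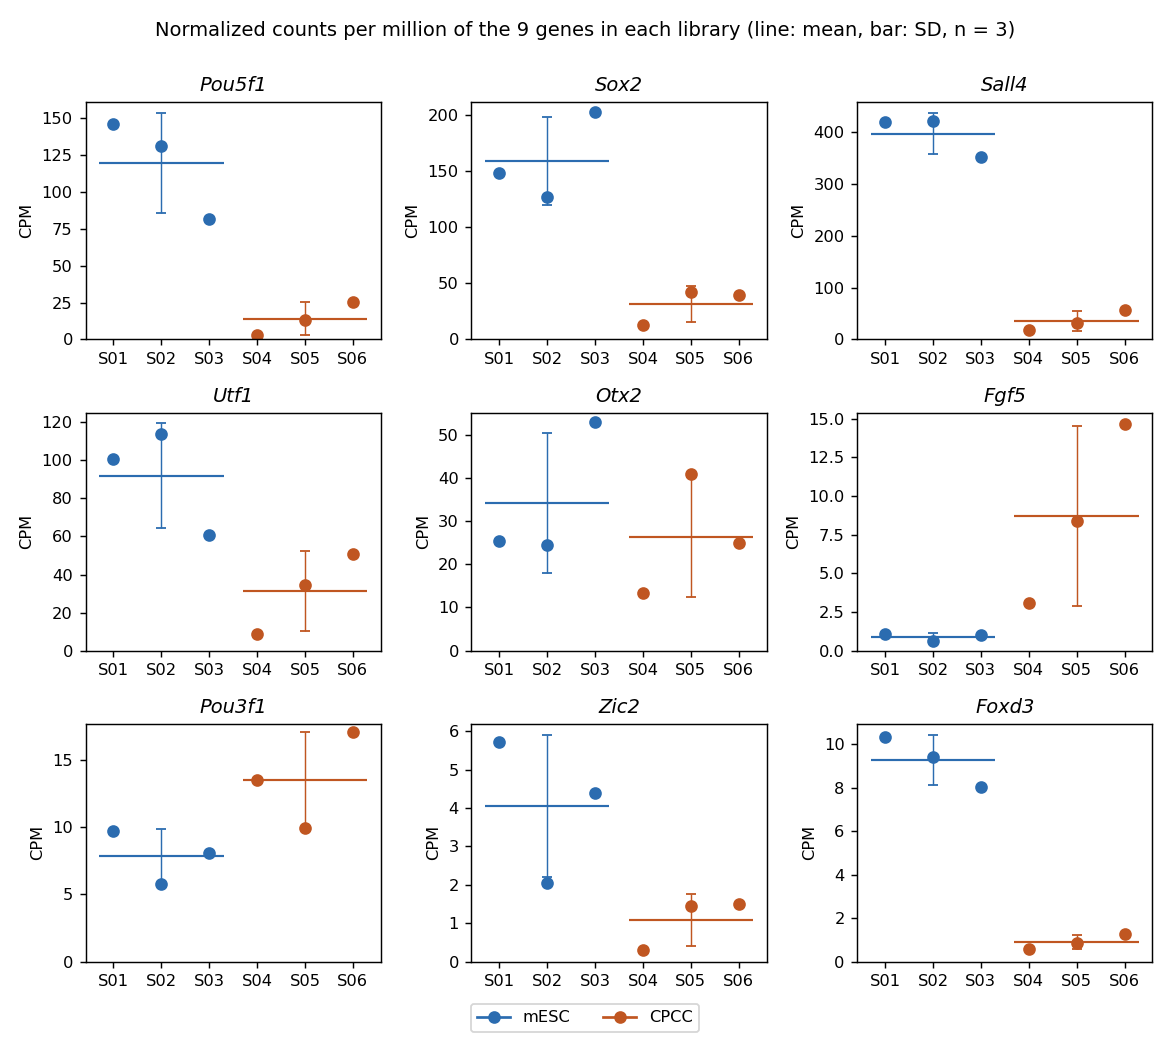
Normalized level in CPM (linear axes from 0) of the 9 genes in the 3 mESC libraries (blue) and the 3 CPCC libraries (orange). Lines are group means and bars the SD (n = 3), and the groups overlap in the panel of Otx2 and in no other.

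*Pou5f1* (chr17:35506032-35510778, + strand) encodes OCT4, without which the inner cell mass does not keep its pluripotency. Its level in S01, S02 and S03 was 146, 131 and 81.6 CPM, and its level in S04, S05 and S06 was 3.08, 13.3 and 25.4 CPM. The groups did not overlap, and within CPCCs the highest library was 8.25 times the lowest. The mean fell from 120 ± 33.8 CPM to 14.0 ± 11.2 CPM (SD, n = 3 each), a log2 fold change of -3.11 (SE 0.60, edgeR adjusted p = 0.00177), or -3.88 without S06. *Pou5f1* counts were not whole in S01, S02, S03 and S06, so some reads may have been divided between places they match, and its level is uncertain to that extent.

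*Sox2* (chr3:34649995-34652461, + strand) encodes the HMG-box partner of OCT4, which also marks neural progenitors. Across mESCs it read 149, 127 and 202 CPM, and across CPCCs 12.7, 42.6 and 39.2 CPM. S04 was the lowest, while S05 and S06 were close to each other. The mean fell 5.06-fold, from 159 ± 39.0 to 31.5 ± 16.3 CPM (SD, n = 3 each), with a log2 fold change of -2.34 (SE 0.41, edgeR adjusted p = 0.00106). *Sox2* lies within *Sox2ot* on the same strand, a long noncoding gene with 1, 5 and 7 counts in mESCs and 11, 93 and 75 in CPCCs, which did not pass the low-count filter. Reads of the stretch they share cannot be told apart from the tables.

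*Sall4* (chr2:168748332-168767202, − strand) encodes a zinc-finger factor that binds the *Pou5f1* locus and supports its expression. The mESC libraries held 420, 422 and 352 CPM, and the CPCC libraries 19.0, 31.4 and 57.3 CPM, with no overlap. The mean fell 11.1-fold, from 398 ± 40.1 to 35.9 ± 19.5 CPM (SD, n = 3 each), and the log2 fold change of -3.47 was the largest fall of the 9 (SE 0.37, edgeR adjusted p = 6.09e-05). The spread of its mESC libraries was the narrowest of the 9 (CV 10.1%), and in CPCCs it was 54.5%.

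*Utf1* (chr7:139943856-139945113, + strand) encodes a chromatin-bound factor of undifferentiated cells. In mESCs it stood at 101, 114 and 60.8 CPM, against 8.75, 34.6 and 50.8 CPM in CPCCs. The groups did not overlap, S03 and S06 being the libraries nearest to each other. The mean was 91.8 ± 27.6 CPM in mESCs and 31.4 ± 21.2 CPM in CPCCs (SD, n = 3 each), with a log2 fold change of -1.55 (SE 0.52, edgeR adjusted p = 0.0275). The adjusted p rose above 0.05 when S01, S02 or S05 was left out, with log2 fold changes of -1.48, -1.37 and -1.63.

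*Otx2* (chr14:48657677-48667645, − strand) encodes a homeobox factor that redirects OCT4 to new enhancers as cells leave the naive state, and later patterns the forebrain and midbrain. In mESCs it stood at 25.5, 24.4 and 53.1 CPM, against 13.3, 41.0 and 24.9 CPM in CPCCs. The groups overlapped, S03 being the highest and S04 the lowest of the 6 libraries. The means of 34.3 ± 16.3 and 26.4 ± 13.9 CPM (SD, n = 3 each) gave a log2 fold change of -0.38 (SE 0.43, edgeR adjusted p = 0.466). Without S03 the difference turned to 0.08.

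*Fgf5* (chr5:98254184-98277034, + strand) encodes a secreted fibroblast growth factor that is the standard mark of the post-implantation epiblast. Counts in mESCs were 7, 4 and 7, and those in CPCCs 31, 69 and 128, that is 1.08, 0.588 and 1.02 CPM against 3.08, 8.37 and 14.7 CPM. Every CPCC library was above every mESC library, and S06 was 4.76 times S04. The mean rose from 0.898 ± 0.270 to 8.71 ± 5.80 CPM (SD, n = 3 each), with a log2 fold change of 3.25 (SE 0.67, edgeR adjusted p = 0.0025), or 2.65 without S06. The gene is also expressed outside the epiblast, in fibroblasts and hair follicles among others. The fibroblast list summed to 7363, 9349 and 6079 CPM in S04, S05 and S06, and was thus lowest in S06, where *Fgf5* was highest. The part of fibroblasts in the *Fgf5* level was not tested.

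*Pou3f1* (chr4:124657646-124660656, + strand), also called *Oct6*, encodes a POU factor of the primed epiblast and of neural and Schwann cells. In mESCs it stood at 9.73, 5.74 and 8.04 CPM, against 13.5, 9.94 and 17.1 CPM in CPCCs. The groups did not overlap, although S05 lay close to S01. The means were 7.84 ± 2.01 and 13.5 ± 3.57 CPM (SD, n = 3 each), and the log2 fold change of 0.79 did not pass (SE 0.34, edgeR adjusted p = 0.0681).

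*Zic2* (chr14:122475384-122480329, + strand) encodes a zinc-finger factor of enhancers in pluripotent cells and of the dorsal forebrain. It had few reads: 37, 14 and 30 counts in mESCs and 3, 12 and 13 in CPCCs, S04 being at the 3 counts taken as the floor. In CPM these were 5.72, 2.06 and 4.39 against 0.298, 1.46 and 1.49. The mean went from 4.05 ± 1.85 to 1.08 ± 0.68 CPM (SD, n = 3 each), with a log2 fold change of -1.91 (SE 0.70, edgeR adjusted p = 0.0400). The call did not hold when S01, S03, S04, S05 or S06 was left out, with log2 fold changes between -2.22 and -1.44.

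*Foxd3* (chr4:99656299-99658672, + strand) encodes a forkhead factor that the epiblast and, later, the neural crest require. The mESC libraries held 10.4, 9.41 and 8.04 CPM, against 0.596, 0.849 and 1.26 CPM in CPCCs, the latter from 6, 7 and 11 counts. The mESC libraries lay close together and far above all CPCC libraries. The mean fell 10.3-fold, from 9.27 ± 1.16 to 0.902 ± 0.335 CPM (SD, n = 3 each), with a log2 fold change of -3.35 (SE 0.46, edgeR adjusted p = 0.000279).

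**Figure D2:**
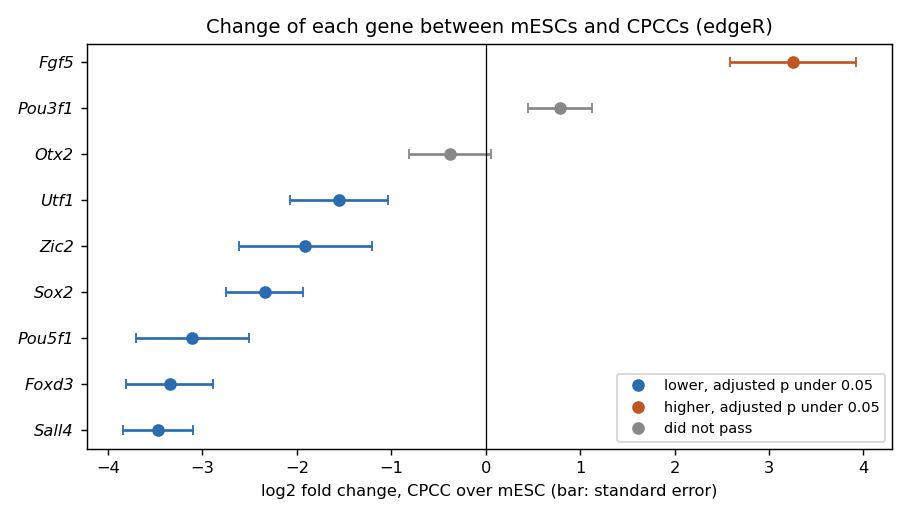
Log2 fold change of CPCCs over mESCs for the 9 genes, from the edgeR fit, with bars of 1 standard error. From Sall4 at -3.47 to Fgf5 at 3.25, 6 genes were lower (blue), 1 was higher (orange), and Otx2 and Pou3f1 (grey) did not pass.

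Taken by library, S04 had the lowest CPCC level for 8 of the 9 genes, the exception being *Pou3f1*. Over all genes tested, S04 was the lowest of the 3 CPCC libraries for 43.1%, S05 for 22.8% and S06 for 34.1%. In S04 *Pou5f1* was at 2.58% of its mESC mean, against 11.1% in S05 and 21.3% in S06. *Utf1* was at 9.53%, 37.6% and 55.3% in the same order, and *Sox2* at 7.99%, 26.7% and 24.6%. The 4 general genes summed to 43.5, 122 and 173 CPM in S04, S05 and S06, and to 696 to 816 CPM in mESCs. Of the 12 naive genes, 10 were also lowest in S04. Neural genes summed to 606 CPM in S04 and to 666 and 676 CPM in S05 and S06, so this list did not fall with the general genes in S04. Without S04 the calls for *Pou5f1*, *Sox2*, *Sall4*, *Utf1*, *Fgf5* and *Foxd3* were kept, and the call for *Zic2* was not.

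**Figure D3:**
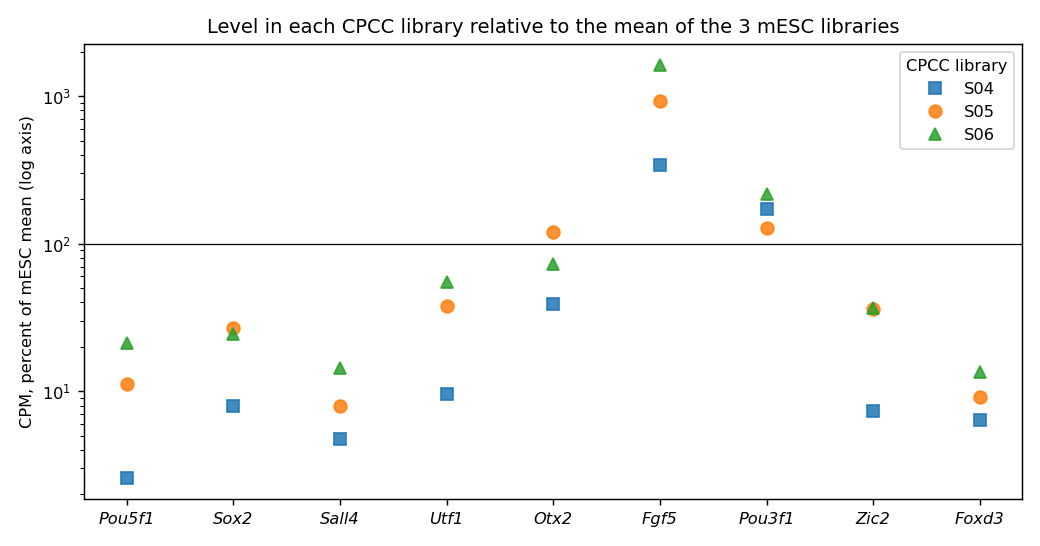
CPM of each gene in each CPCC library (S04 square, S05 circle, S06 triangle) as a percent of the mean of the 3 mESC libraries, on a log axis, with the line at 100%. S04 is lowest for every gene but Pou3f1, and the 3 libraries lie on both sides of the line for Otx2 alone.

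To compare the genes with each other, CPM was divided by the length of the principal transcript (CPM per kb). In mESCs the 4 general genes stood at nearly 1 level, *Pou5f1* at 87.9 ± 24.8, *Sall4* at 78.4 ± 7.91, *Sox2* at 77.4 ± 18.9 and *Utf1* at 74.8 ± 22.5 CPM per kb (SD, n = 3), with differences smaller than their spread. *Otx2* followed at 13.2 ± 6.27, then *Foxd3* at 3.99 ± 0.50, *Pou3f1* at 2.04 ± 0.52, *Zic2* at 1.66 ± 0.76 and *Fgf5* at 0.359 ± 0.108 CPM per kb. Of these neighbours, *Pou3f1* and *Zic2* lay within their spread. In CPCCs the order was *Utf1* at 25.6 ± 17.3, *Sox2* at 15.3 ± 7.95, *Pou5f1* at 10.2 ± 8.21, *Otx2* at 10.2 ± 5.36, *Sall4* at 7.08 ± 3.85, *Pou3f1* at 3.51 ± 0.93, *Fgf5* at 3.48 ± 2.32, *Zic2* at 0.443 ± 0.278 and *Foxd3* at 0.388 ± 0.144 CPM per kb. Neighbours in that order differed by less than the larger of their SDs, except *Fgf5* and *Zic2*. *Otx2* was below *Pou5f1* per length in every mESC library. In CPCCs it was above it in S04 (5.14 against 2.26 CPM per kb) and S05 (15.8 against 9.79) and below it in S06 (9.59 against 18.7).

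The balance of each gene with *Pou5f1* was taken as a log2 ratio of CPM within each library, which cancels the scaling of that library. For *Fgf5* the ratio was -7.08, -7.80 and -6.32 in mESCs and 0.00, -0.67 and -0.79 in CPCCs, a difference of 6.58. For *Pou3f1* it went from -3.91, -4.52 and -3.34 to 2.13, -0.42 and -0.57, a difference of 4.30, and for *Otx2* from -2.52, -2.43 and -0.62 to 2.11, 1.62 and -0.03, a difference of 3.09. The ratios of *Utf1* and *Zic2* were also higher in every CPCC library than in any mESC library, by 1.68 and 1.41. Those of *Sox2*, *Sall4* and *Foxd3* overlapped, with differences of 1.02, -0.10 and 0.10. *Pou5f1* itself had a log2 fold change of -3.11, so a ratio also rose for a gene that fell less. That was so for *Utf1* (-1.55) and *Zic2* (-1.91), and *Otx2* (-0.38) did not pass. The *Zic2* ratio in S04 rests on 3 counts. In a two-sided exact permutation test, the 5 ratios without overlap reached p = 0.1, the smallest that 3 against 3 libraries allow, and an adjusted p of 0.16 over the 8 ratios, so none could pass 0.05.

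**Figure D4:**
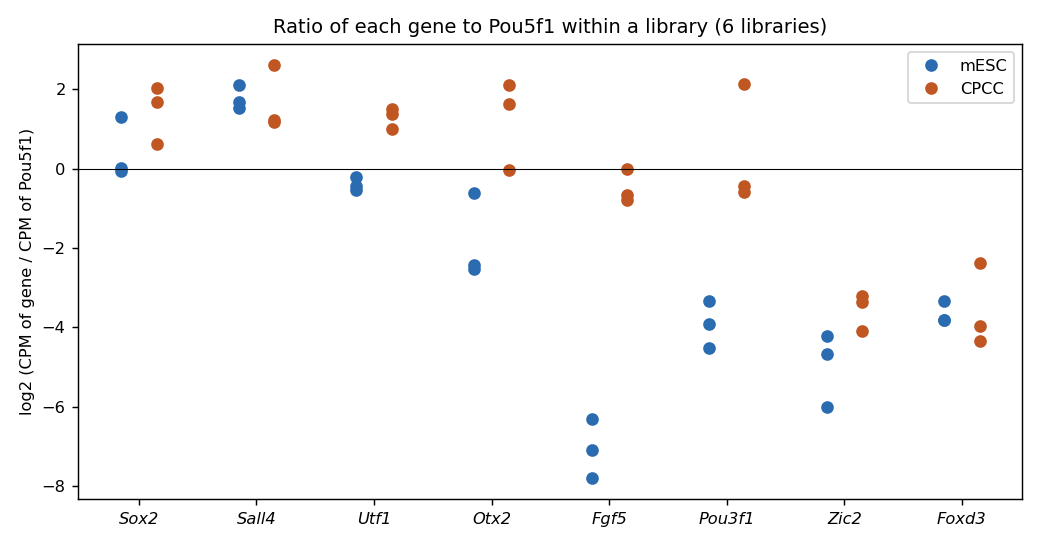
Log2 ratio of each gene's CPM to that of Pou5f1 within the same library, in mESCs (blue) and CPCCs (orange), 3 libraries each. The groups are apart for Utf1, Otx2, Fgf5, Pou3f1 and Zic2 and overlap for Sox2, Sall4 and Foxd3.

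The genes whose levels ran most like each member over the 6 libraries were sought by the root mean square difference of centred log2 CPM. Nearest to *Pou5f1* were *Smoc1* (0.21) and *Zscan10* (0.22), to *Sox2* *Timeless* (0.18) and *Tmem243* (0.21), to *Sall4* *Epp13* (0.10) and *Trap1a* (0.15), and to *Utf1* *Camkv* (0.12) and *Necab3* (0.16). Nearest to *Otx2* were *Usp29* and *Dennd3* (0.26 each), to *Fgf5* *Tmod2* (0.24) and *Nrarp* (0.25), to *Pou3f1* *Zbtb46* (0.14) and *Gk5* (0.16), to *Zic2* *D030068K23Rik* (0.27) and *Gm6644* (0.28), and to *Foxd3* *Tuba4a* (0.10) and *Gm20939* (0.12). Among the 9 themselves, *Sall4* and *Foxd3* were the closest pair (0.34), followed by *Pou5f1* with *Sall4* (0.48), while *Sall4* and *Fgf5* were the farthest apart (3.19). These distances rest on 6 libraries in 2 cell types.

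Of 12 partners of the general pluripotency genes, 9 were lower in CPCCs, none was higher, and *Lin28a*, *Zfp281* and *Nacc1* did not pass, with a list median of -2.87 on the log2 scale. *Nanog*, the homeobox factor that holds cells in self-renewal, fell from 912 ± 197 to 25.3 ± 17.3 CPM (SD, n = 3 each), a log2 fold change of -5.17. *Dppa4* and the Nodal co-receptor gene *Tdgf1* had log2 fold changes of -3.83 and -3.61. Of 7 genes with known composite OCT-SOX sites, 5 were lower (*Fgf4*, *Nanog*, *Fbxo15*, *Zfp42* and *Tdgf1*), with a median of -4.72, and *Spp1* and *Lefty1* did not pass. The largest fall in that list was that of *Fbxo15*, at -6.00, and *Fgf4* went from 532 ± 39.9 to 20.2 ± 17.0 CPM (SD, n = 3 each).

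Of the 12 naive genes, 11 were lower and *Gbx2* did not pass, with a median log2 fold change of -5.36. *Tfcp2l1*, *Tcl1* and *Prdm14* fell the most, with -7.35, -6.80 and -6.63. All 8 germ cell genes were lower, with a median of -3.25 and *Dazl* (-6.16), *Dppa3* (-4.91) and *Tfap2c* (-4.08) in front. The naive median lay below that of the 4 general genes (-2.72). The difference between the lists was not tested.

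Of 15 other formative or primed genes, 13 were tested, 4 were lower, 4 were higher and 5 did not pass, with a median of -0.38. These shares are near those over all genes tested, 29.7% lower and 31.7% higher. *Tcf15* (-2.56), *Nodal* (-2.41), the DNA methyltransferase gene *Dnmt3b* (-1.45) and *Tcf7l1* (-1.16) fell. *Sall2* (4.26), the ETS factor *Etv4* (4.18), *Cldn6* (2.67) and *Dnmt3a* (1.28) rose. *Fgf8* and *Sox3* were listed for CPCCs only, *Fgf8* with 0, 41 and 31 counts in S04, S05 and S06 and *Sox3* with 9, 21 and 39. Of the primitive streak genes, *T* (-3.16) and *Eomes* (-1.80) were lower, *Foxa2* (4.94) was higher, and *Gsc* and *Mixl1* were listed for mESCs only.

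Of 24 paralogs of the members, 15 were tested, 5 were lower, 6 were higher and 4 did not pass. Over all genes tested 29.7% were lower and 31.7% higher, so calls in both directions were not particular to these relatives. The POU relatives went both ways. *Pou5f1* fell, as did *Pou4f1* (-2.38, edgeR adjusted p = 0.0303) and *Pou2f1* (-0.74, edgeR adjusted p = 0.0210), while *Pou3f1* and *Pou2f2* did not pass. The brain POU genes *Pou3f2* and *Pou3f3* rose by 4.86 (SE 1.10, edgeR adjusted p = 0.00433) and 4.51 (SE 0.74, edgeR adjusted p = 0.000738) on the log2 scale, and *Pou6f1* by 1.97. The *Pou3f2* rise rests on few mESC reads (12, 0 and 0), and the *Pou4f1* fall on few CPCC reads (3, 1 and 11). *Pou3f4* was listed for CPCCs only, at least 31.2-fold higher than 3 counts per library allow in mESCs. *Pou2f3* was listed for mESCs only, at 4.48, 4.56 and 17.8 CPM, S03 being far above S01 and S02. While *Sall4* fell, as did *Sall1* (-1.66) and *Sall3* (-3.27), *Sall2* rose by 4.26 (SE 0.33, edgeR adjusted p = 1.25e-05). While *Sox2* fell, *Sox1*, a marker of early neural cells, rose by 3.86. *Zic2* fell, and *Zic5* lay on the same side at -1.64, without overlap, but did not pass (edgeR adjusted p = 0.0554). *Zic1* was listed for CPCCs only, at least 5.33-fold higher. *Zic4*, also listed for CPCCs only, had 4, 57 and 90 counts in S04, S05 and S06. *Foxd1* rose by 2.85 and *Fgf4* fell by 4.72.

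Marker lists of other cell types in which the members act were read beside them. All 7 tested neural genes of 12 were higher, with a median of 3.86, among them the intermediate filament gene *Nes* (4.63, edgeR adjusted p = 1.82e-06), *Dcx* and *Pax6* were among those listed for CPCCs only, and the defining genes *Neurog2* and *Hes5* were in neither table. *Sox1*, *Pou3f2* and *Pou3f3* also stand among the paralogs. The list summed to 46.5 to 50.3 CPM in mESCs and 606 to 676 CPM in CPCCs. Neural crest genes summed to 6.76 to 11.1 CPM in mESCs and 158 to 201 CPM in CPCCs. Of the 3 tested, *Snai2* was higher (4.51), *Tfap2a* was lower (-1.21), a call lost whichever library was left out, and *Msx1* did not pass. *Ets1*, *Pax3*, *Sox10*, *Sox9*, *Tfap2b* and *Twist1* were listed for CPCCs only, *Sox10* with just 0, 8 and 8 counts in S04, S05 and S06. *Pax7* was in neither table. The part of such cells in the CPCC levels of *Sox2*, *Otx2*, *Pou3f1*, *Zic2* and *Foxd3* was not tested. Of the 5 cardiac precursor genes tested, *Tbx20* (2.72) and *Smarcd3* (1.73) were higher and *Isl1*, *Gata4* and *Pdgfra* did not pass. The 3 fibroblast genes tested were higher, with *Col1a1* at 12.40, *Pdgfrb* at 5.06 and *Thy1* at 1.91.

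**Figure D5:**
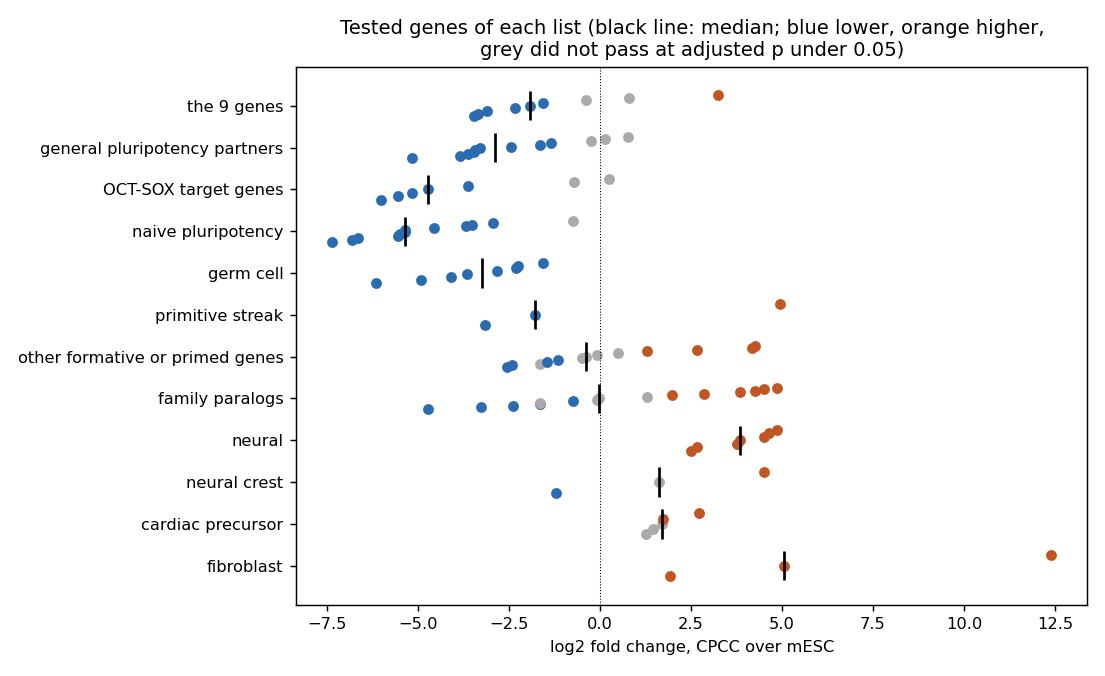
Log2 fold changes of CPCCs over mESCs for the tested genes of each list, with a black line at the median (blue lower, orange higher, grey did not pass). The 9 genes have a median of -1.91, the naive list -5.36, the other formative or primed genes -0.38 and the neural list 3.86.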

How the data were processed

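The authors deposited estimated counts per gene, raw and summed over alleles, in 1 table per cell type. The submitters' processing notes name STAR 2.7 and mm10. The counter and its use of strand are not given in the sources used here. Each table holds genes with at least 10 counts over its 3 libraries. The cell type of a column came from its table, and 0 columns were left out.

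Counts were rounded to whole numbers, the 13001 genes in both tables were filtered with filterByExpr (530 removed), and the rest were tested with edgeR 4.0.16 in R 4.3.3 (quasi-likelihood, TMM, Benjamini-Hochberg). CPM uses TMM-scaled totals. Alternatives were DESeq2 1.42.0, other scalings and filters, missing genes set to 0 or 3 counts, a fold of at least 2 and leaving out each library. The fit was tested on simulated data. Lengths came from GENCODE M21, promoters from RefSeq. Ratios used exact permutation tests (scipy 1.17.1).

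Named were the 9 genes, the 3 largest changes without overlap per list, genes needed for counts of 5 or fewer, the 2 nearest genes per member and overlapping genes. Members and lists were chosen with earlier results of these data known. Some genes of the lists are not reported here by name. A floor of 3 counts covers counting error only.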

Additional observations from a re-analysis of the deposited data

How the results depend on the processing

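Under the 14 alternative fits, *Pou5f1*, *Sox2* and *Sall4* kept their calls in all, and *Fgf5* and *Foxd3* in the 13 that tested them. *Fgf5*, *Zic2* and *Foxd3* were not tested with at least 10 counts required in every sample, where *Pou3f1* passed at 0.86 (edgeR adjusted p = 0.0415). Leaving out each library in turn gave log2 fold changes of -3.88 to -2.61 for *Pou5f1*, 2.65 to 3.67 for *Fgf5*, -2.09 to -1.09 for *Utf1*, -2.22 to -1.44 for *Zic2* and -0.85 to 0.078 for *Otx2*, and 4 to 5 members lower. It gave 0 to 1 partners and 0 to 1 OCT-SOX genes higher, 3 to 6 paralogs lower, and 0 neural crest genes lower. The 10-count filter left 3 paralogs, 0 primitive streak, 2 neural and 0 neural crest genes higher and 5 germ cell genes lower, since fewer genes were tested. DESeq2 called 2 neural crest genes higher. With missing genes at 0 or at 3 counts, 6 neural crest and 8 fibroblast genes were higher, and 5 or 4 cardiac genes. At a fold of at least 2, 2430 genes were lower in place of 3701. The cause of the other changes was not tested. No paired analysis was possible because the columns carry no replicate numbers. *Zic2* and *Fgf5*, at few counts, are limited by depth.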
